A study of Mus musculus with 16 samples.

Results

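The levels of 10 heat shock genes of the cytosol and the mitochondrion were compared across 4 groups of mouse tumours. The members were the entries whose symbol is Hspa1a, Hspa1b, Hsph1, Dnajb1, Bag3, Hsp90aa1, Hspa8, Hspb1, Hspd1 or Hspe1, which made 10 of 18480 entries per library. Each symbol stood on 1 entry, and all 10 were among the 11868 genes tested. The tumours were subcutaneous grafts of MC38, a mouse colon carcinoma line, and RNA was measured in 4 libraries each of a control group, an exercise group, a group given anti-PD-L1, an antibody against the checkpoint ligand, and a group that had both, called the combination here. The labels write the antibody as αPDL1 and the exercise as EXT, while PD-1 blockade is named in the title of the series. Mouse strain, age, training schedule and antibody dose were not given in the sources used here. No label says that the libraries of one group are from different mice, so a p-value here measures only the spread between libraries, which may be technical.

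Heat shock proteins are chaperones: they hold unfolded proteins, help them to fold and keep them from clumping. When unfolded protein accumulates, the transcription factor HSF1 is released from chaperones, forms trimers and binds heat shock elements, in which the letters GAA and their reverse complement TTC alternate, and the inducible members are then transcribed within minutes. Hspa1a and Hspa1b encode the inducible HSP70, Hspa8 its constitutive relative, Dnajb1 an HSP40 that delivers clients to HSP70, Hsph1 and Bag3 nucleotide exchange factors that reload it, Hsp90aa1 the inducible cytosolic HSP90, Hspb1 a small heat shock protein, and Hspd1 and Hspe1 the chaperonin and co-chaperonin of the mitochondrial matrix. Many tumours carry high levels of these proteins.

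The sequences below are shown because they hold pairs or longer runs of the heat shock element letters near the starts of 7 members. The choice by symbol did not use this feature. They come from the RefSeq promoter windows of GRCm38.p6, which reach from 250 bases before to 50 bases after a start, and are written 5′ to 3′ on the strand of the gene, with the heat shock element letters in capitals. Hspa1a and Hspa1b gave the same 100 bases, on the minus strand at chr17:34972187-34972286 and chr17:34959269-34959368. Hspb1 had 2 separate pairs on the plus strand at chr5:135887790-135887841. Hspe1 on the plus strand and Hspd1 on the minus strand shared one element at chr1:55088053-55088082, read from either side. Hsph1 at chr5:149636287-149636316 on the minus strand and Bag3 at chr7:128523603-128523632 on the plus strand held the runs shown just after the start. Hsph1 has 1 more pair, which begins before the start and is not shown.
Hspa1a: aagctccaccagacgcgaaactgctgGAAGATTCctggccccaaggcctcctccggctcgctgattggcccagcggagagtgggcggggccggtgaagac
Hspa1b: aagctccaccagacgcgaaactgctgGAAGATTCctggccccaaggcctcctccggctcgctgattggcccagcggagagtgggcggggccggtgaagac
Hspb1: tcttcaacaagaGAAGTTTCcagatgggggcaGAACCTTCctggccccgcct
Hspe1: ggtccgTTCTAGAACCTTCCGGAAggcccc
Hspd1: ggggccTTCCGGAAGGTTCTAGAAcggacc
Hsph1: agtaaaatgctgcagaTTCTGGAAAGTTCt
Bag3: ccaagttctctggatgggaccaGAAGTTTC

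Of the 10 members, 8 had 11 promoter windows between them, and Hspa8 and Hsp90aa1 had none. A run of 3 alternating units was searched as GAANNTTCNNGAA or TTCNNGAANNTTC on both strands. It was in 4 windows of 3 members, Hsph1, Hspd1 and Hspe1, and in 198 of 32851 windows of all genes, or 0.603%. The 2 windows of Hsph1 overlap and hold the same run, and Hspd1 and Hspe1 share theirs, so these 4 windows are not separate elements. A pair of units, searched as GAANNTTC or TTCNNGAA, which every longer run also contains, was in 8 of the 11 windows. These belonged to 7 members, all those with a window except Dnajb1, and the pair was in 15.1% of all windows. The windows of Hspa1a and Hspa1b differed at 4 of 300 bases, and at 0 of the 100 bases printed. The element shared by Hspd1 and Hspe1, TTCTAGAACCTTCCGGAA, covers 18 bases, and the starts of its 2 windows lie 216 bases apart on opposite strands. It lies inside the annotated span of Hspd1, which has another start farther upstream, and before the first exon of Hspe1. A match is a description of the letters and no measure of binding. Only exact letters inside the windows were searched, so imperfect or more distant elements were not counted.

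In the RefSeq annotation of GRCm38.p6, Hspa1b (chromosome 17, 34956429 to 34959238) and Hspa1a (chromosome 17, 34969359 to 34972156) lie 10120 bases apart. Hspd1 (chromosome 1, 55077833 to 55088243) and Hspe1 (chromosome 1, 55088148 to 55091317) overlap by 96 bases at their starts. The others are Hspb1 (chromosome 5, 135887919 to 135889563), Hsph1 (chromosome 5, 149616843 to 149636498), Bag3 (chromosome 7, 128523583 to 128546981), Dnajb1 (chromosome 8, 83608175 to 83612653), Hspa8 (chromosome 9, 40801276 to 40805202) and Hsp90aa1 (chromosome 12, 110691036 to 110696395). Hspa1a and Hspa1b are near-identical copies: of 2868 stretches of 100 bases in the Hspa1a transcript, 47.1% are also in that of Hspa1b, so fragments may have been split between them and their separate values are uncertain.

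Values are FPKM, in which the fragments of a gene are divided by its length and by the size of its library, which allow levels of different genes to be compared. FPKM sums were 478672 to 529732 per library and 11293 to 11873 genes reached 1 FPKM. The files hold no counts, so the depth is unknown. Control 2 stood apart: it held 384.5 FPKM summed over 12 skeletal muscle markers, against 2.37 to 15.59 in the other 15 libraries. Controls 1 and 2 were also left out together, an alternative chosen after seeing the data. The epithelial genes Epcam and Krt8 reached at most 0.17 and 0.20 FPKM in any library, so they do not mark the grafted line here. Of the 6 genes of this list that were found, 2 were tested. These were Cdh1, at 1.24 to 3.05 FPKM, and Krt19, at 0.04 to 4.87 FPKM, and whether they mark the line was not tested.

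The members spanned a wide range of levels. Hspa8 was the most abundant, with a median of 1960.0 FPKM over 16 libraries (1599.97 to 2458), and alone held 0.314% to 0.499% of the FPKM sum of a library. Hsp90aa1 followed with a median of 358 FPKM, Hspd1 with 219.7 and Hspe1 with 141. Hsph1, Hspa1b, Dnajb1 and Bag3 had medians of 58.5, 54.4, 54.1 and 37.9 FPKM, and Hspb1 and Hspa1a of 3.72 and 3.45 FPKM. Hspa8 was the one member whose range did not overlap that of the next. Within a library the order was steadier: Hspd1 was above Hspe1, Hspe1 above Hsph1 and Bag3 above Hspb1 in 16 of 16 libraries, and Hsp90aa1 above Hspd1 in 15. Hsph1 was above Hspa1b in 11 libraries and Hspa1b above Dnajb1 in 7, so these neighbours did not differ beyond their spread. Hspb1 was above Hspa1a in 7.

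**Figure D1:**
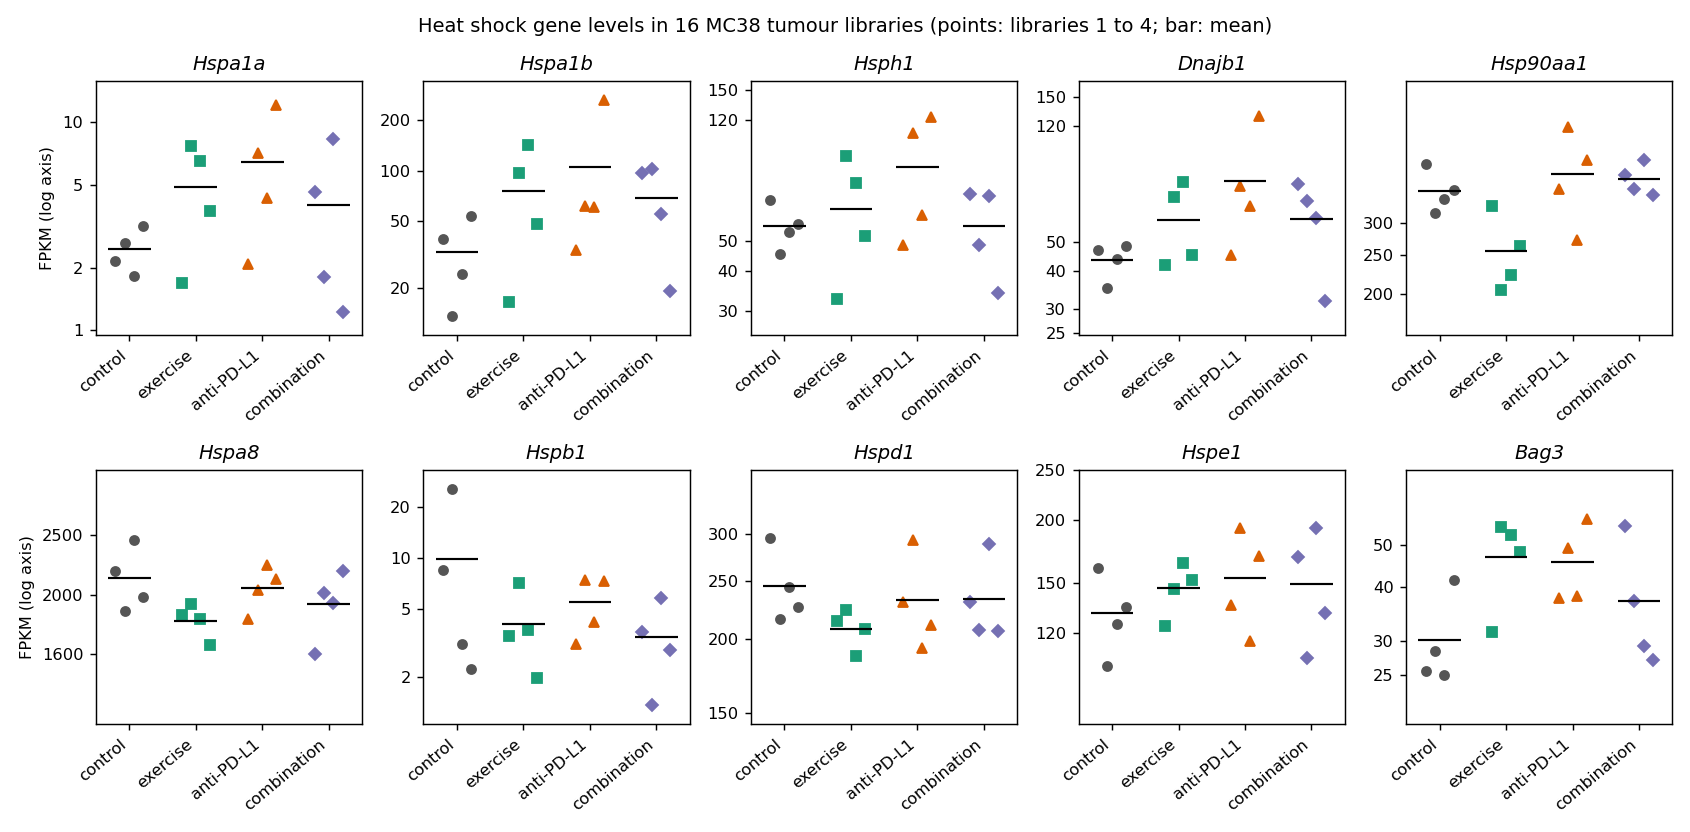
FPKM of the 10 heat shock genes on log axes, 1 panel per gene, with a point per library in the order 1 to 4 and a bar at the mean of each group. Hspa1b spans 13.6 to 263 FPKM with overlapping groups, while 3 of the 4 exercise libraries of Hsp90aa1 lie at 205 to 263 FPKM, below each control.

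In limma, with p-values adjusted by Benjamini-Hochberg at a threshold of 0.05, 0 of 10 members passed in any of the 6 comparisons or in the test of any difference among the 4 groups. Among all genes, 30 of 11868 (0.253%) passed for anti-PD-L1 against control and 16 (0.135%) for any difference, while 0 (0.00%) passed in the other comparisons. At an unadjusted p under 0.05 in limma, 20.8% of genes differed among the groups, and 1 of 10 members did, Hsp90aa1, with an unadjusted p of 0.00785 and an adjusted p of 0.156.

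Hspa1b, the more abundant copy of inducible HSP70, varied most. The control libraries 1 to 4 measured 39.2, 13.6, 24.4 and 53.9 FPKM and the exercise libraries 16.6, 96.7, 141 and 48.2 FPKM. Anti-PD-L1 libraries 1 to 4 measured 33.9, 61.7, 60.4 and 263 FPKM, and the combination 96.9, 103, 54.9 and 19.3 FPKM. Anti-PD-L1 library 4 was the highest and control 2 the lowest, 2 exercise libraries, 1 anti-PD-L1 library and 1 combination library fell within the control range, and all groups overlapped. The mean was 32.8 ± 17.6 FPKM (SD, n = 4) in control, 75.7 ± 54.7 with exercise, 104.7 ± 106 with anti-PD-L1 and 68.4 ± 39.1 in the combination.

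Hspa1a, the other copy, was low throughout. It measured 2.15, 2.64, 1.82 and 3.18 FPKM in control and 1.68, 7.71, 6.49 and 3.72 FPKM with exercise. With anti-PD-L1 it measured 2.09, 7.08, 4.32 and 12.1 FPKM, and in the combination 4.63, 1.80, 8.30 and 1.23 FPKM. Anti-PD-L1 library 4 was again the highest, the controls lay close together, and each treated group reached below the highest control. The ratio of Hspa1b to Hspa1a ran from 5.17 in control 2 to 57.0 in combination library 2. Summed, the copies differed by 1.34 ± 0.72 on the log2 scale (SE) for anti-PD-L1 against control, with a limma adjusted p of 0.272, close to 1.36 ± 0.74 for Hspa1b alone.

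Dnajb1, the HSP40 partner of inducible HSP70, measured 46.9, 35.2, 43.9 and 48.4 FPKM in control and 42.1, 69.95, 78.6 and 45.3 FPKM with exercise. Its level was 45.2, 76.2, 65.5 and 129.97 FPKM with anti-PD-L1 and 77.2, 67.96, 59.7 and 31.99 FPKM in the combination. The controls of Dnajb1 lay close together, and 2 exercise, 3 anti-PD-L1 and 3 combination libraries lay above them, with an overlap in each group. Hsph1, an HSP110 that exchanges the nucleotide of HSP70, measured 67.3, 45.4, 53.2 and 56.6 FPKM in control and 32.7, 92.5, 75.98 and 51.6 FPKM with exercise. It measured 48.5, 109.6, 60.5 and 123 FPKM with anti-PD-L1 and 70.4, 48.5, 69.5 and 34.1 FPKM in the combination. The groups of Hsph1 overlapped, and the mean of the combination, 55.6 ± 17.6 FPKM, lay beside the control mean of 55.6 ± 9.08 FPKM (SD, n = 4 each).

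Bag3, an exchange factor that also steers HSP70 clients to autophagy, measured 25.6, 28.5, 25.1 and 41.6 FPKM in control. Exercise libraries measured 31.5, 54.99, 52.6 and 48.1 FPKM, anti-PD-L1 libraries 37.7, 49.1, 38.0 and 57.3 FPKM, and combination libraries 55.2, 37.1, 29.2 and 27.1 FPKM. Control 4 stood above the other controls and overlapped each treated group, and 3 of 4 exercise libraries lay above every control. The mean was 30.2 ± 7.73 FPKM in control, 46.8 ± 10.6 with exercise, 45.5 ± 9.47 with anti-PD-L1 and 37.2 ± 12.8 in the combination (SD, n = 4 each).

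Hsp90aa1, the inducible cytosolic HSP90, had another pattern. It measured 422, 319, 346 and 363 FPKM in control and 331, 205, 223 and 263 FPKM with exercise. Anti-PD-L1 libraries measured 367, 524, 273 and 433 FPKM and combination libraries 396, 365, 432 and 354 FPKM. Exercise libraries 2, 3 and 4 were the lowest of all 16, exercise 1 lay above the lowest control, and all 4 combination libraries lay above all 4 exercise libraries. The group explained 54.5% of the variance of Hsp90aa1, more than for 91.0% of the genes tested, against 9.90% to 39.3% for the other members and a median of 30.4% over all genes.

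Hspa8, the constitutive HSP70, varied least. It measured 2184, 1881, 2458 and 1979.8 FPKM in control, 1854, 1927, 1824 and 1653 FPKM with exercise, 1823, 2033, 2232 and 2123 FPKM with anti-PD-L1 and 1599.97, 2009, 1940.1 and 2183 FPKM in the combination. All groups overlapped, and 3 of 4 exercise libraries lay below the lowest control. Its standard deviation within groups was 0.15 on the log2 scale, below the median of 0.18 over all genes. The same measure was 1.14 for Hspa1b, larger than for 99.75% of genes, 0.85 for Hspb1, 0.76 for Hspa1a, 0.53 for Hsph1, 0.48 for Dnajb1 and 0.36 for Bag3.

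Hspb1, the small heat shock protein, measured 8.49, 25.5, 3.11 and 2.22 FPKM in control and 3.49, 7.13, 3.77 and 1.98 FPKM with exercise. It measured 3.13, 7.41, 4.23 and 7.36 FPKM with anti-PD-L1 and 3.66, 1.37, 5.82 and 2.86 FPKM in the combination. Control 2 was far the highest and control 1 the second, and the other controls lay among the treated libraries. Control 2 was also the library with the skeletal muscle markers, all 12 of which were highest there, and Hspb1 is abundant in muscle. The part of muscle RNA in this value was not tested. Without control 2 the difference of anti-PD-L1 from control went from -0.28 to 0.32 on the log2 scale.

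Hspd1, the mitochondrial chaperonin, measured 296, 216, 245 and 226 FPKM in control, 214, 223, 187 and 208 FPKM with exercise, 230.5, 293, 193 and 211 FPKM with anti-PD-L1 and 230.3, 207, 289 and 206 FPKM in the combination. Hspe1, its co-chaperonin, measured 161, 103, 125 and 135 FPKM in control, 124, 146, 164 and 152 FPKM with exercise, 136, 193, 116 and 169 FPKM with anti-PD-L1 and 169, 107, 192 and 131 FPKM in the combination. For both genes the groups overlapped, and control 1, anti-PD-L1 2 and combination 3 were the highest libraries of their groups. The ratio of Hspd1 to Hspe1 was lowest in exercise library 3, at 1.14, and highest in control 2, at 2.09.

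The first comparison asked how heat shock genes differed with the antibody alone. With anti-PD-L1, 7 of 10 members had a higher mean than control on the log2(FPKM + 1) scale, with a median difference of 0.37, against 42.3% of all genes and a median of -0.04. Inducible HSP70 and its partners had the largest differences: 1.36 ± 0.74 (log2 fold change ± SE) for Hspa1b, 0.92 ± 0.50 for Hspa1a, 0.75 ± 0.31 for Dnajb1, 0.59 ± 0.23 for Bag3 and 0.52 ± 0.34 for Hsph1. Of the members, 2 were higher at an unadjusted p under 0.05 in limma, Dnajb1 and Bag3, where 7.77% of all genes were higher and 23.5% differed in either direction. Their limma adjusted p was 0.168 and 0.155, and that of Hspa1b was 0.276. Without anti-PD-L1 library 4 the differences shrank to 0.77 for Hspa1b, 0.58 for Hspa1a, 0.48 for Dnajb1 and 0.31 for Hsph1, while Bag3 kept 0.47. No member then passed an unadjusted p of 0.05 in limma, with p of 0.117 for Dnajb1 and 0.0778 for Bag3, and none did without anti-PD-L1 library 2 either, with p of 0.0547 and 0.0541. Without controls 1 and 2 the count was 0 as well. Leaving out anti-PD-L1 library 1, the lowest of its group for 7 members, instead raised the count to 5. The differences were then 1.74 for Hspa1b, 1.28 for Hspa1a, 0.98 for Dnajb1, 0.75 for Hsph1 and 0.67 for Bag3. Even so, 0 members passed an adjusted p of 0.05 in limma, and the lowest was 0.1015 for Dnajb1. With any other single library left out the count was 1 or 2. In the fit of all 16 libraries the remaining members lay nearer to 0, Hspe1 at 0.22 ± 0.19, Hsp90aa1 at 0.11 ± 0.18, Hspa8 at -0.05 ± 0.11, Hspd1 at -0.09 ± 0.14 and Hspb1 at -0.28 ± 0.55.

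The second asked the same of exercise alone, measured against the same control libraries. Hsp90aa1 was lower by a log2 fold change of -0.52 ± 0.18 (SE) and Bag3 higher by 0.61 ± 0.23, with limma adjusted p of 0.188 and 0.207. At an unadjusted p under 0.05 in limma these made 2 of 10 members, where 18.0% of all genes passed. Hspa1b differed by 0.97 ± 0.74, Hspa1a by 0.65 ± 0.50, Dnajb1 by 0.39 ± 0.31 and Hsph1 by 0.09 ± 0.34. Hspa8 at -0.22 ± 0.11 and Hspd1 at -0.23 ± 0.14 were lower by about the same amount, and Hspe1 at 0.17 ± 0.19 was not. Hspb1 had the most negative difference, -0.67 ± 0.55, which was -0.07 without control 2 and 0.39 without controls 1 and 2. Of the members, 6 of 10 had a higher mean than control, against 46.2% of all genes, and their median was 0.13 against -0.02.

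Exercise library 1 bore on these values. Within its group it was the lowest library for 6 members, Hspa1a, Hspa1b, Hsph1, Dnajb1, Hspe1 and Bag3, and the highest for Hsp90aa1. Without it, Hsp90aa1 differed between exercise and control by -0.65 with a limma adjusted p of 0.0437, and Bag3 by 0.79 with a limma adjusted p of 0.0564. Hspa1b differed by 1.55, Hspa1a by 0.99, Dnajb1 by 0.53 and Hsph1 by 0.37 without it, with limma adjusted p of 0.197, 0.235, 0.335 and 0.504. The background moved with it, since 5.15% of all genes passed then. Leaving out exercise library 2 instead weakened the differences, to -0.42 for Hsp90aa1, 0.53 for Bag3, 0.42 for Hspa1a and -0.12 for Hsph1. With each library left out in turn, the limma adjusted p ran from 0.0437 to 0.451 for Hsp90aa1 and from 0.0564 to 0.462 for Bag3. Libraries were also weighted by how well they fit their group. The weight was 0.507 for exercise library 1, 2.14 for exercise library 3 and 2.02 for control 1. The lowest was 0.417, for anti-PD-L1 library 4. Hsp90aa1 then fell by 0.66 with exercise and Bag3 rose by 0.80, with limma adjusted p of 0.0154 and 0.0137. With these weights 19.2% of all genes passed. In the test of any difference with weights, Hsp90aa1 and Bag3 had limma adjusted p of 0.0241 and 0.0377, where 13.7% of all genes passed.

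**Figure D2:**
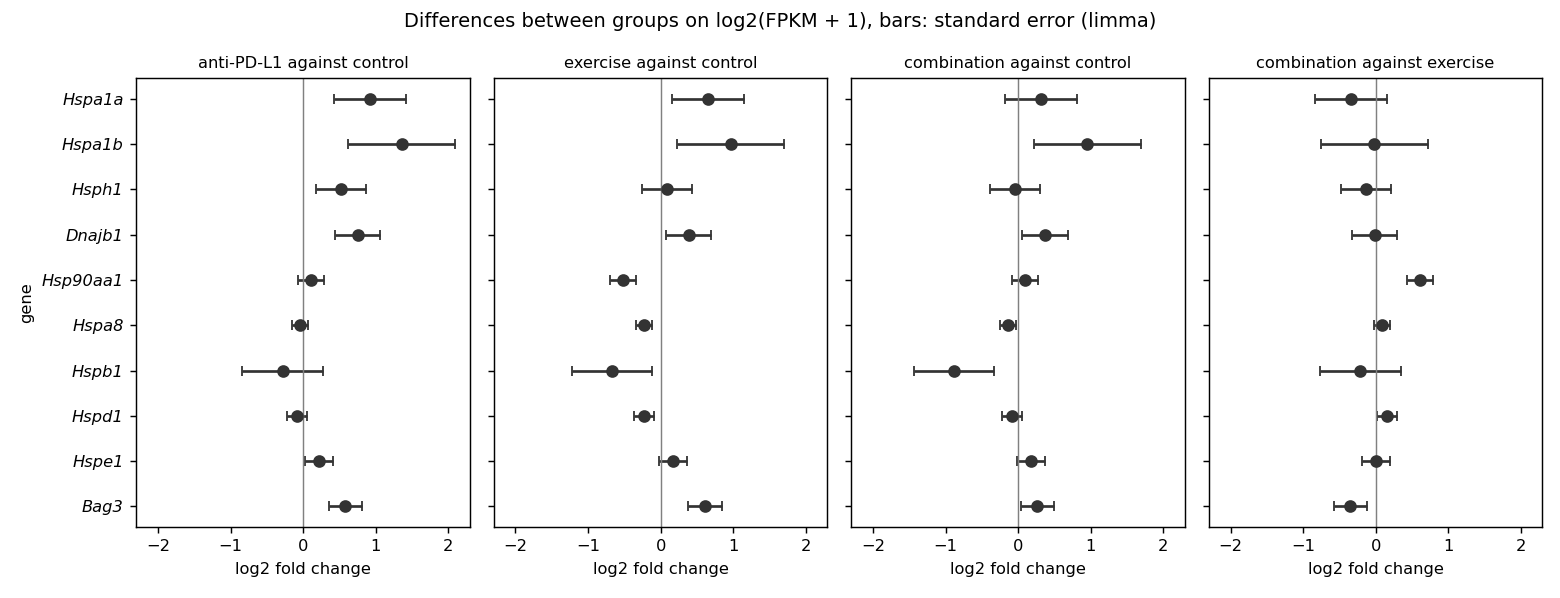
Differences between groups in log2(FPKM + 1) for the 10 genes in 4 comparisons, with bars of 1 standard error from limma. Hspa1b has wide bars around 0.95 to 1.36 in the 3 comparisons with control, while Hsp90aa1 lies at -0.52 for exercise and at 0.62 for the combination against exercise.

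In the combination, 6 of 10 members had a higher mean than control and the median difference was 0.14, against 41.9% and -0.03 for all genes. No member reached an unadjusted p under 0.05 in limma, where 8.20% of all genes did. Hspa1b differed by 0.95 ± 0.74, Dnajb1 by 0.37 ± 0.31, Hspa1a by 0.32 ± 0.50, Bag3 by 0.27 ± 0.23 and Hspb1 by -0.88 ± 0.55 (log2 fold change ± SE). Without combination library 4, the lowest of its group for 7 members, Hspa1b differed by 1.46 and Dnajb1 by 0.64. Hspb1 differed by -0.28 without control 2, the library with the muscle markers, and by 0.18 without controls 1 and 2, and Bag3 by 0.06 without combination library 1.

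Against anti-PD-L1 alone, the combination was lower in 9 of 10 members, with a median of -0.35, where the median of all genes was 0.02 and 55.2% of all genes were higher. None reached an unadjusted p under 0.05 in limma, where 3.94% of all genes did. The differences were -0.60 ± 0.50 for Hspa1a, -0.56 ± 0.34 for Hsph1, -0.41 ± 0.74 for Hspa1b, -0.38 ± 0.31 for Dnajb1, -0.32 ± 0.23 for Bag3 and -0.60 ± 0.55 for Hspb1. For Hspa1b the sign turned to 0.18 without anti-PD-L1 library 4.

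Against exercise alone, Hsp90aa1 was higher in the combination by 0.62 ± 0.18 (log2 fold change ± SE), with a limma adjusted p of 0.210. It was the one member whose groups did not overlap, where 3.21% of all genes were higher and 3.73% lower without overlap. At an unadjusted p under 0.05 in limma, 13.6% of all genes passed, and 1 of 10 members. The mean of the combination was the higher one for 4 of 10 members and for 46.1% of all genes. Without exercise library 1 the difference was 0.75 with a limma adjusted p of 0.0449, and 1.55% of all genes passed. With library weights it was 0.71 with a limma adjusted p of 0.0470, where 1.87% passed. The inducible HSP70 genes differed by -0.02 ± 0.74 for Hspa1b and -0.33 ± 0.50 for Hspa1a, whose standard errors leave room for differences of either sign.

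The interaction asked whether the combination differed from the sum of both single differences. It was above 0 for 4 of 10 members and for 54.9% of all genes. It was -0.93 ± 0.33 for Bag3, whose level was higher with either treatment alone than in the combination, with a limma adjusted p of 0.364. It was 0.51 ± 0.25 for Hsp90aa1, with a limma adjusted p of 0.393, and -1.37 ± 1.04 for Hspa1b and -1.26 ± 0.70 for Hspa1a. At an unadjusted p under 0.05 in limma, Bag3 was the 1 of 10 members that passed, where 13.1% of all genes did. Leaving out controls 1 and 2 gave -0.81 for Bag3, and 0 members were called in any comparison.

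The members did not vary as one group. Over the 16 libraries, Hspa1a, Hspa1b, Hsph1, Dnajb1 and Bag3, which were put together after their values were seen, correlated with each other in log2(FPKM + 1) with Pearson r of 0.65 to 0.94 in their 10 pairs, and 0.60 to 0.93 after removing the group means. The median r over all 45 pairs of members was 0.21. Hspa1b and Dnajb1 had the highest r, 0.94 (Spearman's rho 0.97), and 0.89 without anti-PD-L1 4 and control 2. Hspa1a and Hsph1 had r of 0.88 (rho 0.89), and Hsph1 was the gene most like Hspa1a among 11867 others. These points share libraries, their unknown depth and the scaling of each library, and Hspa1a and Hspa1b may share fragments. Hsp90aa1 had r of -0.23 to 0.15 with the same 5 genes, and the sign depended on the libraries left out. Exercise libraries 2 and 3 lay farthest from the median of Hsp90aa1. Without them r was 0.63 with Hsph1, 0.47 with Dnajb1, 0.43 with Hspa1a, 0.37 with Hspa1b and 0.15 with Bag3. With all 16 libraries r was already negative with Hspa1a, Hspa1b and Bag3, at -0.02, -0.05 and -0.23. Without the 2 libraries farthest from the median of the other gene, r was negative with each of the 5. It was then -0.32 with Hsph1, -0.06 with Dnajb1, -0.34 with Hspa1a, -0.29 with Hspa1b and -0.38 with Bag3.

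Hspd1 and Hspe1, which share the printed element, had r of 0.54 (rho 0.41), 0.72 after removing the group means and 0.38 without anti-PD-L1 2 and control 1. Before that removal Hspd1 was nearer to Hsp90aa1, with r of 0.67 (rho 0.60), and Hspe1 to Hsph1, with r of 0.69 (rho 0.78). After it, r was 0.67 and 0.71 for these pairs, so neither lay above the 0.72 of Hspd1 and Hspe1. Hspa8 had r of -0.51 to 0.21 with the other members. Hspb1 had r of 0.32 with Hspa1a (rho 0.52), and 0.77 without controls 1 and 2.

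**Figure D3:**
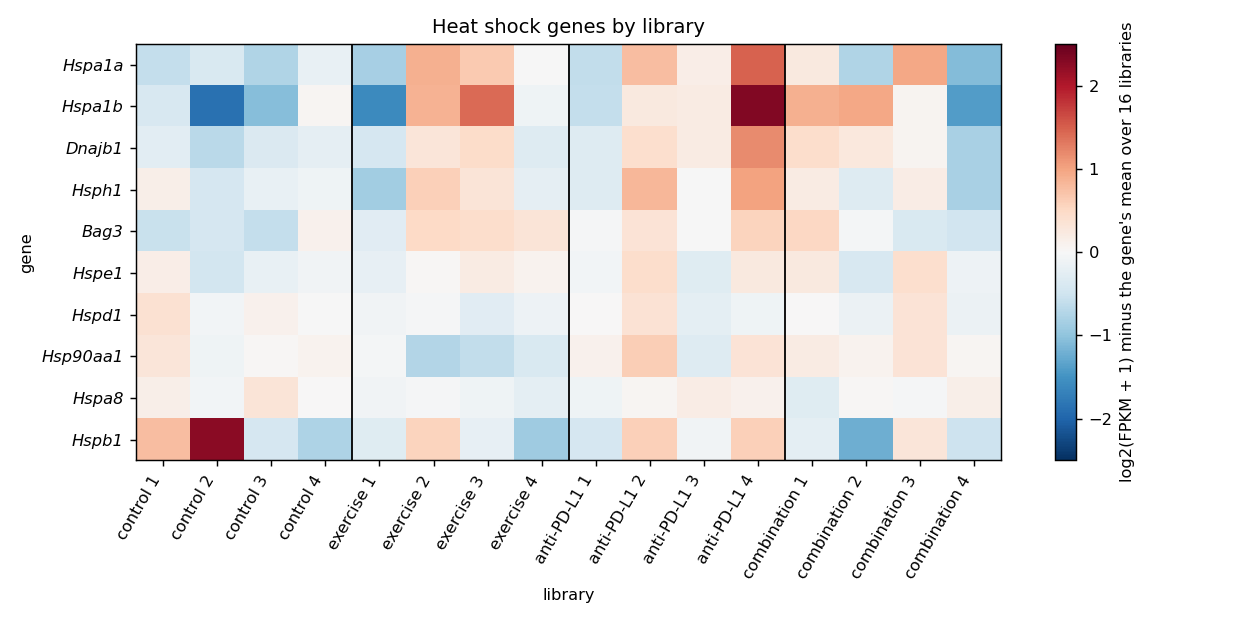
log2(FPKM + 1) of each gene minus its mean over the 16 libraries, with genes as rows, libraries as columns and black lines between groups. Anti-PD-L1 library 4 is the highest of all 16 for 5 genes, Hspa1a, Hspa1b, Dnajb1, Hsph1 and Bag3, control 2 stands out for Hspb1, and exercise libraries 2 and 3 are low for Hsp90aa1 while high for Hspa1b.

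**Figure D4:**
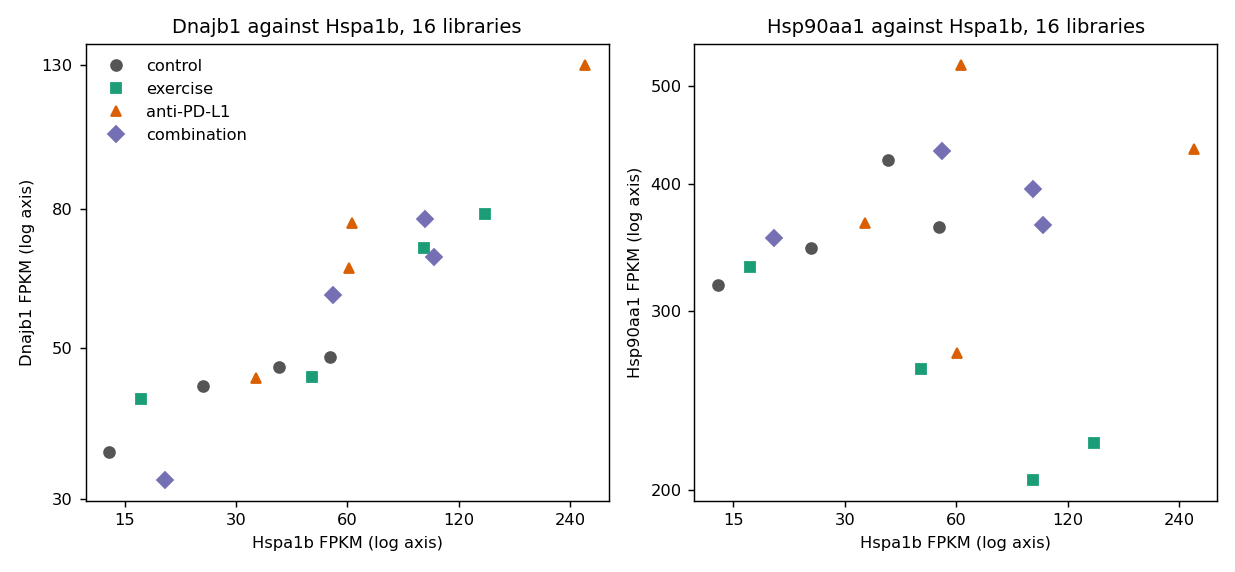
FPKM of Dnajb1 (left) and of Hsp90aa1 (right) against Hspa1b in 16 libraries on log axes, with 1 symbol per group. Dnajb1 follows Hspa1b across all groups (r of 0.94). Hsp90aa1 has r of -0.05 over all 16 libraries, 0.37 without exercise libraries 2 and 3 and -0.29 without anti-PD-L1 4 and control 2. For Hsp90aa1, 3 exercise libraries lie lowest at 205 to 263 FPKM.

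Genes outside the members with the most similar pattern were taken by Pearson r over the 16 libraries among 11858 genes. Closest to the mean of the members were Btg1 (r of 0.91), an antiproliferative factor, Phlda1 (0.91), Bcl6 (0.90), a transcriptional repressor, Atf3 (0.89), a stress-induced transcription factor, and Nfkbia (0.89), the inhibitor of NF-κB. Closest to Hspa1b were Flcn (0.94), the folliculin gene, Bag6 (0.92), a chaperone of membrane proteins, Btg1 (0.92), Zfand2a (0.90), an arsenite and heat inducible gene, and Rab3gap2 (0.90). Zfand2a ran from 15.6 to 64.8 FPKM and Bag6 only from 75.6 to 96.6 FPKM. Closest to Hspd1 were Polr2g (0.85), a subunit of RNA polymerase II, Gt(pU21)140Imeg (0.85), the tRNA synthetases Nars and Tars (0.84 each) and Zfp180 (0.83). Gt(pU21)140Imeg was near the filter of 1 FPKM, at 0.38 to 1.72 FPKM.

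Other chaperones were read from lists that did not hold the members. Of 31 cytosolic chaperones and co-chaperones, 8 subunits of the TRiC chaperonin, 15 mitochondrial chaperones and proteases and 13 chaperones of the endoplasmic reticulum, 0 passed an adjusted p of 0.05 in limma in any comparison. At an unadjusted p under 0.05 in limma, 1 cytosolic gene was higher with exercise than in control, while 3 cytosolic genes, 4 TRiC subunits, 4 mitochondrial genes and 2 of the endoplasmic reticulum were lower. Of all genes, 18.0% passed in either direction. With anti-PD-L1, 6 cytosolic genes were higher and 3 lower, 1 TRiC subunit and 5 mitochondrial genes were lower, and 1 gene of the endoplasmic reticulum was higher, where 23.5% of all genes passed in either direction. All 8 TRiC subunits were lower than control in each treated group, with a median log2 fold change of -0.23 with exercise, -0.17 with anti-PD-L1 and -0.12 in the combination. The means of most genes were also lower there, since 46.2%, 42.3% and 41.9% of all genes were higher than control in these groups, with medians of -0.02, -0.04 and -0.03. These comparisons share the control libraries. Tcp1, a TRiC subunit, was 229 ± 19.6 FPKM in control and 184 ± 19.6 with exercise (SD, n = 4 each). Its log2 fold change was -0.31 ± 0.09 (SE), with a limma adjusted p of 0.181.

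The cytosolic genes with the smallest p for any difference were Chordc1, Dnajb5 and Ptges3. Chordc1, a co-chaperone of HSP90, was 28.8 ± 2.26 FPKM in control, 20.2 ± 0.873 with exercise, 29.0 ± 7.04 with anti-PD-L1 and 25.4 ± 2.89 in the combination (SD, n = 4 each). Ptges3, the p23 co-chaperone, was 91.1 ± 5.34 FPKM in control and 69.7 ± 2.19 with exercise. Both had a limma adjusted p of 0.181 for exercise against control. Dnajb5, an HSP40, was 4.36 ± 0.465 FPKM in control, 4.02 ± 0.361 with exercise, 3.21 ± 0.474 with anti-PD-L1 and 3.23 ± 0.219 in the combination, and its limma adjusted p was 0.0894 for anti-PD-L1 against control. For Chordc1 the exercise libraries, at 19.1 to 21.2 FPKM, lay below the controls, at 25.5 to 30.5 FPKM, without overlap, as did 3.51% of all genes. Hsp90ab1, the constitutive cytosolic HSP90, which was named after its values were seen, was 2372 ± 120 FPKM in control and 2649 ± 93.1 with exercise. Its log2 fold change of 0.16 ± 0.09 had the opposite sign to that of Hsp90aa1, with a limma adjusted p of 0.366.

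Chaperones of other compartments included Hspa9, the mitochondrial HSP70, at 209.6 ± 26.9 FPKM in control, 164 ± 15.2 with exercise, 235 ± 36.4 with anti-PD-L1 and 224 ± 15.1 in the combination (SD, n = 4 each). Hspa9 differed by 0.45 ± 0.12 on the log2 scale (SE) between the combination and exercise, with a limma adjusted p of 0.199. Hsp90b1, the HSP90 of the endoplasmic reticulum, was 301 ± 39.1 FPKM in control and 223 ± 34.3 with exercise, a log2 fold change of -0.43 ± 0.14. Hsf1, the gene of the transcription factor, also named after its values were seen, had means of 52.1, 48.4, 49.5 and 52.4 FPKM in control, exercise, anti-PD-L1 and combination libraries. Of 17 immediate early genes, another class that responds within minutes, 0 passed in limma and 5 were higher with anti-PD-L1 at an unadjusted p under 0.05, where 7.77% of all genes were. With anti-PD-L1 15 of the 17 had a higher mean than control, with a median of 0.35, against 42.3% and -0.04 for all genes. Dusp1, a phosphatase of this class, was 18.4 ± 5.94 FPKM in control and 42.9 ± 14.6 with anti-PD-L1, with a limma adjusted p of 0.109. Fosl1, which had the smallest p of the 17 for any difference, differed by 0.06 ± 0.16 on the log2 scale (SE) in this comparison. Its limma adjusted p was 0.861.

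Group means of markers of other cells also differed, but 0 macrophage, endothelial or fibroblast markers passed an adjusted p of 0.05 in limma. The sum of 12 macrophage markers was 483 to 1946 FPKM in control, 573 to 1019 with exercise, 379.6 to 787 with anti-PD-L1 and 431 to 1268 in the combination, and 12 of 12 had a lower mean than control with exercise, 11 with anti-PD-L1 and 12 in the combination. Of all genes, 46.2%, 42.3% and 41.9% had a higher mean than control in these groups. At an unadjusted p under 0.05 in limma, 0 macrophage markers differed with exercise or in the combination, where 18.0% and 8.20% of all genes did. With anti-PD-L1, 7 were lower and 1 higher, where 23.5% of all genes differed. Control 2, the library with the muscle markers, had the highest control sum of macrophage (1946 FPKM), endothelial (125 FPKM) and fibroblast markers (1617 FPKM). For 8 tested endothelial markers, 6 were lower than control with exercise, 7 with anti-PD-L1 and 8 in the combination. At an unadjusted p under 0.05 in limma, 1, 4 and 6 of them were lower and 0 higher. Of all genes, 18.0%, 23.5% and 8.20% differed there in either direction. Fibroblast markers summed to 1014 to 2074 FPKM with exercise and 363 to 1516 in the combination. All 7 tested ones were lower in the combination than with exercise, the comparison in which Hsp90aa1 was higher, with a median log2 fold change of -0.76, and 2 of them at an unadjusted p under 0.05 in limma, where 13.6% of all genes passed. Krt14, a keratin of basal skin cells, was 20.4 ± 10.6 FPKM in control, 55.5 ± 15.7 with exercise, 38.4 ± 12.5 with anti-PD-L1 and 48.8 ± 27.3 in the combination (SD, n = 4 each). The sum of 9 T and NK cell markers was 4.46 to 9.52 FPKM in control, 8.97 to 15.5 with exercise, 16.3 to 43.8 with anti-PD-L1 and 9.41 to 27.95 in the combination. Of all the marker and chaperone lists, Nkg7, a gene of cytotoxic lymphocytes, was the one gene that passed in limma, for anti-PD-L1 against control, with an adjusted p of 0.0436. In these bulk samples fewer cells of a type and less RNA per cell cannot be told apart, and the part of these cells in the levels of the heat shock genes was not tested.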

How the data were processed

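The authors deposited FPKM with 2 decimals for 18480 entries in each of 16 libraries, from Trizol total RNA per the labels' protocols. The submitters' processing notes name HISAT, Bowtie2 and GRCm38.p6. The program that made the FPKM and the library kit were not given in the sources used here. Values were taken as log2(FPKM + 1), which understates changes of low genes. The 11868 genes that reached 1 FPKM in 4 or more libraries were fitted in 1 model of all 16 libraries with limma 3.58.1 in R 4.3.3 (group as the only term, empirical Bayes with trend and robust settings). P-values were adjusted by Benjamini-Hochberg over all genes within each comparison at 0.05. The interaction was combination minus exercise minus anti-PD-L1 plus control. The fit was tested on simulated data with independent noise for each gene. These lack spread shared by the genes of a library, so the test does not bear on the effect of single libraries.

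The members and gene lists were chosen with earlier results of these data known. Named genes were the members, the list genes that passed or otherwise up to 3 with the smallest p of the test of any difference, and the 5 genes closest in pattern; not all are printed. Alternatives changed the settings of limma (no trend or robust fit, a replicate block, weights per library, a fit of the compared groups alone), the scaling (quantiles, library medians), the filter (none, or a mean of at least 5 FPKM), the pseudocount (0.1) and the libraries (each left out, and controls 1 and 2 together, added later), or summed the Hspa1 copies.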

Additional observations from a re-analysis of the deposited data

Results flagged for a closer look

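Anti-PD-L1 library 4 lay apart from its group for Hspa1b, at 263 FPKM against 33.9 to 61.7 FPKM in the other 3 libraries. Its gap to the nearest library was 0.879 of the range of the group on the FPKM scale, above Dixon's critical value for 4 libraries, and 0.711 on the log2(FPKM + 1) scale, below it. Of 40 groups of 4 libraries checked, it was the 1 past that value on the FPKM scale, and 0 were on the log2 scale, where chance gives about 1 in 20. Without this library Hspa1b differed between anti-PD-L1 and control by 0.77 on the log2 scale, against 1.36 with it.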

How the results depend on the processing

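Of 1550 values of the members under the alternatives, 55 changed sign, 45 of these when 1 library was left out, and 5 passed the threshold. No member passed it in the fit reported, so none could lose it, and 705 of the 1550 equal the reported value, since many settings leave the fold change as it is. The 5 were those of Hsp90aa1 and Bag3 without exercise library 1 or with library weights: for exercise against control -0.65 and -0.66 (Hsp90aa1) and 0.80 (Bag3, weights), and for the combination against exercise 0.75 and 0.71 (Hsp90aa1). Thus 2 members were called for exercise against control with weights and 0 to 1 when a library was left out, 1 with weights and 0 to 1 for the combination against exercise, and 2 with weights for any difference. The cause was not tested.

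Hspb1 without controls 1 and 2 gave 0.78 for anti-PD-L1, 0.39 for exercise and 0.18 for the combination against control, and -0.99 for the interaction, which was -0.0114 with a pseudocount of 0.1. For the combination against anti-PD-L1, Hspd1 gave -0.0060 with quantile normalization, -0.0031 with centring and -0.064 with weights. For the combination against exercise, Hspa8 gave -0.10 with quantile normalization and Hspe1 -0.050 with weights. With each library left out in turn, the values that changed sign for anti-PD-L1 against control were -0.037 to 0.28 (Hsp90aa1), -0.10 to 0.026 (Hspa8), -0.70 to 0.32 (Hspb1) and -0.21 to 0.0028 (Hspd1). For exercise against control Hsph1 gave -0.12 to 0.37. For the combination against control the ranges were -0.058 to 0.63 (Hspa1a), -0.18 to 0.17 (Hsph1) and -0.19 to 0.013 (Hspd1). Against anti-PD-L1 they were -0.79 to 0.18 (Hspa1b), -0.18 to 0.13 (Hsp90aa1), -0.10 to 0.13 (Hspd1) and -0.17 to 0.10 (Hspe1). Against exercise they were -0.60 to 0.49 (Hspa1b), -0.41 to 0.079 (Hsph1), -0.16 to 0.25 (Dnajb1), -0.45 to 0.058 (Hspb1) and -0.13 to 0.15 (Hspe1), and -0.53 to 0.49 for the interaction of Hspb1.

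Counts over all genes moved more. For anti-PD-L1 against control, 30 became 117 with quantile normalization, 77 with centring, 8 without the filter, 835 with weights, 4 without controls 1 and 2, and 6 to 767 with a library left out. For any difference, 16 became 9 without trend and robust settings, 37 with quantile normalization, 7 without the filter, 1626 with weights and 5 to 306 with a library left out. The count of 0 for the combination against exercise became 2 with quantile normalization, centring or a mean of at least 5 FPKM, 1 with only the groups compared, 222 with weights, 5 without controls 1 and 2 and 0 to 184 with a library left out. For exercise against control it became 2274 with weights and 0 to 611, and for the interaction 0 to 224, with a library left out. The replicate numbers gave no sign of pairing. After removing the group mean of each gene, same-numbered libraries of different groups correlated at -0.62 to 0.34. Of these 24 pairs, 6 lay over 0.1, and 1 of 16 libraries correlated best with its own number. With the replicate number as a block, 15 genes passed for anti-PD-L1 against control, 8 for any difference, and 0 members.

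FPKM hold no counts, so counting error could not be separated from other spread, also for Hspa1a and Hspb1, the members with the lowest levels.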
